A study of Homo sapiens with 4 samples.

Results

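Replication-dependent histone genes lie together in the human genome, and the open chromatin of their 3 clusters was described here in LNCaP cells given vehicle or GSK2879552. The members were all listed open regions (ATAC-seq peaks) whose summit lay in 1 of 3 fixed hg19 intervals. These are chr6:26000000-26300000 (the proximal cluster of chromosome 6), chr6:27070000-27900000 (its distal cluster) and chr1:149780000-149870000. The vehicle list had 199 members among its 191905 peaks on chromosomes 1 to 22, X and Y, and the GSK2879552 list had 191 among 161535. By cluster, the vehicle and GSK2879552 lists held 56 and 47 peaks in the proximal cluster, 119 and 119 in the distal cluster, and 24 and 25 on chromosome 1.

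LNCaP cells are a human prostate cancer line that responds to androgen, and GSK2879552 inhibits LSD1 (KDM1A), a demethylase of histone H3. Cells were kept in RPMI-1640 with 10% FBS, and the treatment is described as 50 µM GSK2879552 for 4 hours in RPMI1640 with 5% CSS; the vehicle samples carry the same treatment text and differ by their agent label. ATAC-seq uses the transposase Tn5 to insert adapters into accessible DNA, so tags pile up where chromatin is open. The 4 samples were 2 lanes per condition, labelled technical replicates, with 1 peak list per condition. There was thus 1 library per condition, no replicate check and no test between conditions: every difference below is between 2 libraries, and intervals cover counting error only.

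The clusters hold genes for the core histones H2A, H2B, H3 and H4, which form the nucleosome, and for linker histone H1, which binds the DNA between nucleosomes. These genes are transcribed mainly in S phase, when new DNA must be packaged, and their mRNAs end in a stem-loop in place of a poly(A) tail. Their transcription is organised in the histone locus body, a nuclear structure built around the protein NPAT. A promoter element differs by family: an octamer bound by OCT1 is known from H2B promoters, an AC-rich box from H1 promoters and a family-specific element from H4 promoters, while CCAAT and TATA boxes recur in several families.

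In RefSeq gene order (GRCh38.p14, used for names and order only) the proximal cluster held 32 such genes from H1-1 to H4C8, namely 5 H1, 4 H2A, 8 H2B, 7 H3 and 8 H4 genes. The distal cluster held 21 from H2BC11 to H2BC17, with 1 H1, 7 H2A, 6 H2B, 3 H3 and 4 H4 genes. Its histone genes did not run together: 5 stood before and 16 after a break of 77 other genes between H2AC12 and H2BC13, of which 51 were tRNA genes. Chromosome 1 held 11 from H2BC18 to H2AC21, with 4 H2A, 2 H2B, 3 H3 and 2 H4 genes and 0 H1 genes. No gene positions in hg19 were used here, so peaks are named by position and not by gene, and which of them lie on histone promoters cannot be told apart from those on neighbouring genes.

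Start windows of some of these genes are shown because they carry the family elements and because the copies H4C14 and H4C15 bear on how tags on chromosome 1 can be placed. Each runs from 250 bases before to 50 bases after a gene's start, is given from RefSeq (GRCh38.p14) in the direction of the gene, and has 5 searched motifs in capitals, on either strand. The positions of these windows belong to that build and are not comparable with the hg19 peak positions. H1-4 (chr6:26156079-26156378, plus strand) stands for the proximal cluster, H2BC11 (chr6:27132746-27133045, minus strand) for the distal one, and H2BC21 (chr1:149886633-149886932, minus strand) and H4C14 (chr1:149832407-149832706, plus strand) for chromosome 1.
H1-4: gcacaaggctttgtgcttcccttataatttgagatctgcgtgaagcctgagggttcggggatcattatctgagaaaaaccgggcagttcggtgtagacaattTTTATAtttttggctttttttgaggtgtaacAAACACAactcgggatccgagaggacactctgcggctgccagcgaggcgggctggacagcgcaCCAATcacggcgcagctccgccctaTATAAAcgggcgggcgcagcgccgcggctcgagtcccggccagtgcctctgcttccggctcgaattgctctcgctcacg
H2BC11: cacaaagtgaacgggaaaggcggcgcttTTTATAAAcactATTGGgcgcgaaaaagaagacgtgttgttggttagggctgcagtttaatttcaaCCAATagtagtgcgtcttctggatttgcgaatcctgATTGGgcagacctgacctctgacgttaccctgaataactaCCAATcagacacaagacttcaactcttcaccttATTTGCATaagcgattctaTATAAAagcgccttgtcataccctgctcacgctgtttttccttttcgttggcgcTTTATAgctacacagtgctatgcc
H2BC21: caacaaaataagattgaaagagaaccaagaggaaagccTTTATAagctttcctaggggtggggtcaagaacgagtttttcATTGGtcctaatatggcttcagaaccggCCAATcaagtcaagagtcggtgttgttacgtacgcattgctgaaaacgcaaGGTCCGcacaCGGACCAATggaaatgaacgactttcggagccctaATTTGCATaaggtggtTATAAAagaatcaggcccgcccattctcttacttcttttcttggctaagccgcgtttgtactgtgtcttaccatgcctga
H4C14: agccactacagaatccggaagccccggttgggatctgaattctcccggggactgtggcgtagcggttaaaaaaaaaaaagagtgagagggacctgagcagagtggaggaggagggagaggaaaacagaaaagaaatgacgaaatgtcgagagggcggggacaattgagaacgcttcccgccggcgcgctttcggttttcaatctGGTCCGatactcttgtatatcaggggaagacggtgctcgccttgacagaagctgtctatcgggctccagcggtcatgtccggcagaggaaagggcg
The capitals mark the AC-rich box AAACACA in H1-4 and the octamer ATTTGCAT in H2BC11 and H2BC21. In all 3 they also mark the CCAAT box and the TATA box TATAAA. In both H2B windows the octamer stood just upstream of a TATAAA. In H2BC11 the octamer began 47 and that TATAAA 28 bases before the gene start, and in H2BC21 these distances were 46 and 30 bases. In H1-4 the AAACACA began 117, the CCAAT 54 and the nearest TATAAA 29 bases before the start. The H4C14 window held neither TATAAA nor CCAAT, and its capitals mark GGTCCG, the core of the H4 element, a motif added after the window was seen. It began 46 bases before the start. The H2BC21 window also held GGTCCG on both strands, in 1 case overlapping a CCAAT.

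Of the 64 histone genes, 59 had a start window, and 4 of these had 2 windows, which gave 63. Searched on both strands, the octamer ATTTGCAT was in 25 of the 63 windows, against 1.77% of all 35116 RefSeq windows. It was in 14 of 18 H2B and 10 of 14 H2A windows, in 1 of 13 H3 windows, and in 0 of 6 H1 and 0 of 12 H4 windows. CCAAT was in 54 of 63 against 34.6% of all windows, with 3 of 12 H4 windows holding it and every window of the other families. TATAAA was in 42 of 63 against 11.5%. AAACACA was in 9 of 63 against 5.64%, and in 6 of 6 H1 windows. GGTCCG was in 14 of 63 against 11.3%, and in 11 of 12 H4 windows. None of these motifs contains another, and a match is a string of letters, not a bound site.

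All 3 clusters were dense in open regions under both conditions. With vehicle there were 18.7 peaks per 100 kb in the proximal cluster, 14.3 in the distal cluster and 26.7 on chromosome 1, against 6.20 over all compared chromosomes. With GSK2879552 the densities were 15.7, 14.3 and 27.8, against 5.22. Peaks covered 5.99%, 4.96% and 12.3% of the bases of the clusters with vehicle, and 4.44%, 4.19% and 9.73% with GSK2879552. Over all compared chromosomes they covered 1.60% and 1.20%. Less sequence lay inside peaks with GSK2879552 in each of the 3. The numbers of peaks depended on the length and threshold of the lists. With lists of equal length there were 49 vehicle and 47 GSK2879552 peaks in the proximal cluster, 115 and 119 in the distal cluster, and 21 and 25 on chromosome 1. With a −log10 q minimum of 5 there were 47 and 41, 106 and 94, and 18 and 19.

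On chromosome 1, 18 of the 24 vehicle and 16 of the 25 GSK2879552 peaks lay in a stretch of 52.8 kb that holds identical gene copies, where the tags are uncertain. In the 37.2 kb outside it there were 16.1 vehicle and 24.2 GSK2879552 peaks per 100 kb, so with vehicle the density there was under that of the proximal cluster. The higher GSK2879552 value there rests on vehicle peaks that were each listed as 2 GSK2879552 peaks. These were chr1:149783253-149784204, chr1:149784737-149785344 and chr1:149857812-149858806. It thus does not show more open places with GSK2879552. Peaks covered 9.65% and 7.95% of those bases.

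Few stretches of the same length held as many peaks. When the compared chromosomes were cut into windows of 300 kb, 0.214% of 10301 windows held at least the 56 vehicle peaks of the proximal cluster, and 0.582% its 47 GSK2879552 peaks. For the distal cluster these shares were 0.70% and 0.404% of 3716 windows of 830 kb. For chromosome 1 they were 0.131% and 0.0902% of 34375 windows of 90 kb, and 1 window with vehicle and 6 with GSK2879552 had as many bases inside peaks. The clusters were set by known gene positions and not by these values. The windows may include stretches without mapped sequence, which hold no peaks.

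**Figure D1:**
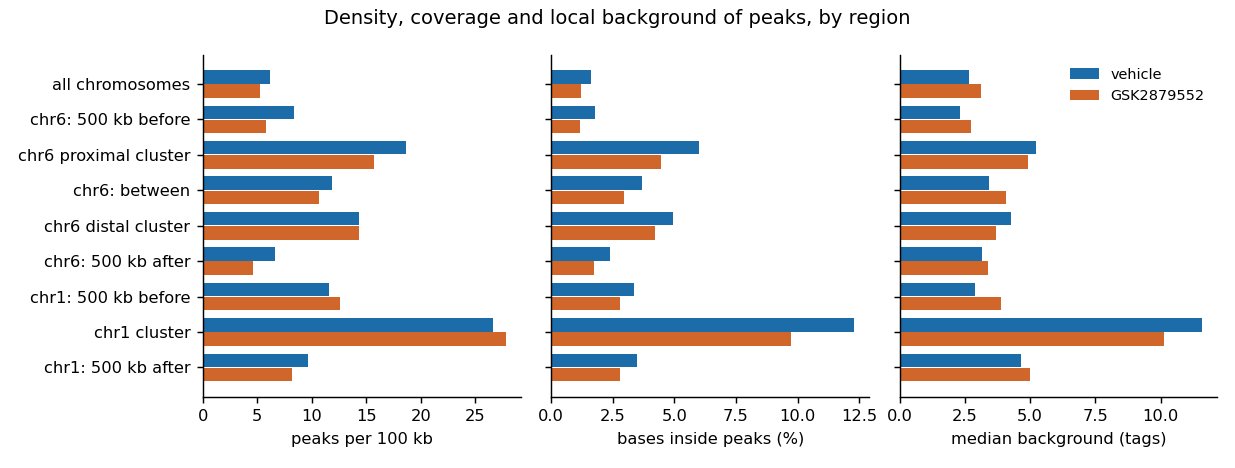
Peaks per 100 kb, percent of bases inside peaks and median local background in tags, for the 3 clusters, their flanks of 500 kb, the stretch between the chromosome 6 clusters and all compared chromosomes; bars are single values per list (blue vehicle, orange GSK2879552) and carry no error. The chromosome 1 cluster, its mirrored stretch included, has the longest bars in each panel, with 26.7 and 27.8 peaks per 100 kb.

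The flanks were less dense than the clusters. The 500 kb before the proximal cluster held 8.40 vehicle and 5.80 GSK2879552 peaks per 100 kb, and the 500 kb after the distal cluster held 6.60 and 4.60. The 770 kb between both held 11.8 and 10.6. Beside the chromosome 1 cluster there were 11.6 and 12.6 peaks per 100 kb before it and 9.60 and 8.20 after it.

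Peaks in the clusters had higher median summit tags and median widths than the peaks of all compared chromosomes. The height of a peak is given in summit tags, the tags at its highest position, recovered from the deposited fold and −log10 p. With vehicle the median was 31.5 tags in the proximal cluster, 39 in the distal cluster and 48 on chromosome 1, against 22 over all. With GSK2879552 the medians were 29, 27 and 44, against 20. Some neighbouring stretches had like medians, with 34 vehicle and 28.5 GSK2879552 tags between the chromosome 6 clusters. After the chromosome 1 cluster they were 33.5 and 28, and after the distal cluster 25 and 40. Before the proximal cluster they were 20 and 20, and before the chromosome 1 cluster 22 and 21. The highest vehicle summits had 73, 95 and 85 tags, and the highest GSK2879552 summits 60, 84 and 69.

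The top 10% of the vehicle list began at 59 tags, and 9 of 56, 21 of 119 and 10 of 24 cluster peaks reached it. These were 16.1%, 17.6% and 41.7%, where 10.1% of all vehicle peaks did. The top 10% of the GSK2879552 list began at 51 tags, which 4 of 47, 8 of 119 and 10 of 25 reached. These were 8.51%, 6.72% and 40%, where 10.3% of all GSK2879552 peaks did, so both chromosome 6 clusters were below all. These are ranks within lists of unequal length and show no change between conditions. Median widths were 227.5, 248 and 274.5 bp with vehicle and 193, 224 and 241 bp with GSK2879552, against 189 and 171 bp over all. Peaks of at least 500 bp numbered 14, 23 and 8 with vehicle (25%, 19.3% and 33.3%), where 9.41% of all vehicle peaks were as wide. With GSK2879552 they numbered 8, 15 and 5 (17%, 12.6% and 20%), where 7.33% of all GSK2879552 peaks were. After the distal cluster 33.3% of vehicle and 30.4% of GSK2879552 peaks were as wide, and before the proximal cluster 2.38% and 3.45%.

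Peaks also stood on a raised local background, the tag number that the peak caller took from the surroundings of each peak. Its vehicle median was 5.24 tags in the proximal cluster, 4.28 in the distal cluster and 11.6 on chromosome 1, against 2.64 over all. Its GSK2879552 median was 4.92, 3.70 and 10.1, against 3.12. The median fold of summits over this background was 5.23, 6.87 and 4.61 with vehicle, against 5.44 over all. With GSK2879552 it was 4.74, 5.66 and 3.96, against 4.34. By fold, the proximal cluster with vehicle and chromosome 1 with both were thus below all peaks. On chromosome 1, 0 of 24 and 0 of 25 peaks stood at the lowest, genome-wide background, where 40.3% of all vehicle and 38.4% of all GSK2879552 peaks did. The background can include tags of neighbouring peaks, and their part in its values was not tested.

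Many neighbouring peaks within the clusters lay close together. The median distance between neighbouring summits was 2214 bp in the proximal cluster, 3562.5 bp in the distal cluster and 1202 bp on chromosome 1 with vehicle, and 2034, 3155.5 and 637 bp with GSK2879552. Neighbouring vehicle summits were under 1 kb apart in 20 of 55, 36 of 118 and 8 of 23 cases. Such distances were not taken outside the clusters, so close spacing is not shown to be particular to them. The longest stretch without a vehicle summit was 30.0 kb in the proximal cluster, from position 26126515 to 26156546, and 46.8 kb in the distal cluster, from 27394044 to 27440869. On chromosome 1 it was 12.5 kb, from 149844841 to 149857306. In the GSK2879552 list the gaps of the distal and chromosome 1 clusters were at the same places, at 46.8 and 12.9 kb. The longest gap of the proximal cluster was 41.6 kb there, from 26244196 to 26285839.

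**Figure D2:**
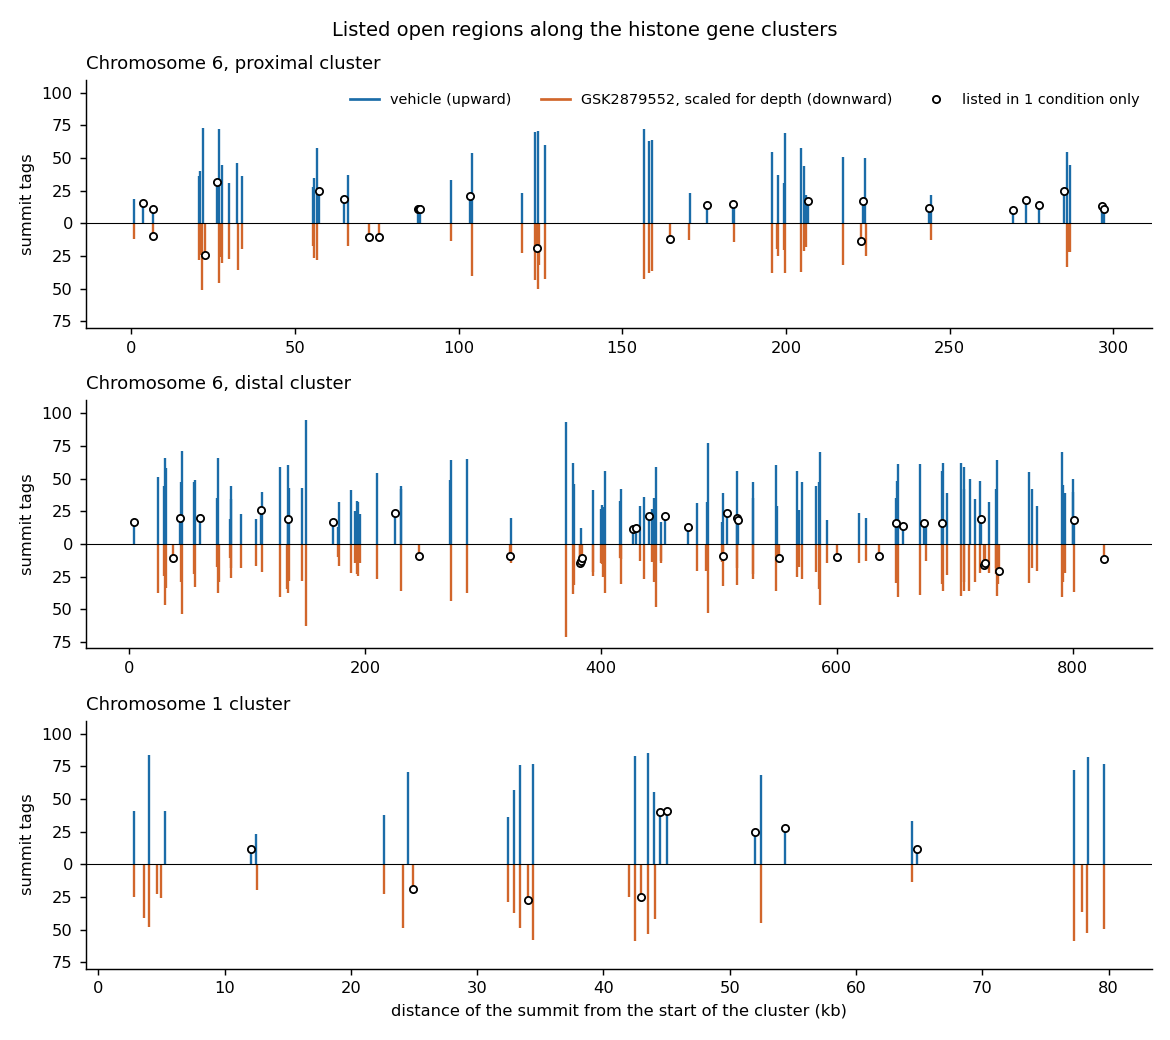
Summit tags of every listed peak along each cluster, against the distance from the cluster's start in kb; vehicle tags point up, GSK2879552 tags divided by the depth ratio 1.18 point down, and open circles mark peaks with no overlapping peak in the other list. Tall peaks are mirrored across the line in all 3 clusters, and the circles sit mostly on short lines, with 2 vehicle exceptions of 40 and 41 tags on chromosome 1, in its stretch of identical gene copies.

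Most cluster peaks had a partner, meaning a peak of the other list that overlapped by at least 1 bp. In the vehicle list 36 of 56 proximal peaks had one (64.3%, exact Clopper-Pearson 95% interval 50.4 to 76.6), 98 of 119 distal peaks (82.4%, 74.3 to 88.7) and 18 of 24 on chromosome 1 (75%, 53.3 to 90.2). The 47 cluster peaks without a partner were 23.6% of 199, where 38.5% of all vehicle peaks had none. In the GSK2879552 list 40 of 47 proximal peaks (85.1%, 71.7 to 93.8), 105 of 119 distal peaks (88.2%, 81.0 to 93.4) and 22 of 25 on chromosome 1 (88.0%, 68.8 to 97.5) had a partner. The 24 without were 12.6% of 191, where 23.5% of all GSK2879552 peaks had none.

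At a given strength the counting intervals of the 3 clusters together included the shares of all peaks, while those of chromosome 1 did not in 2 classes. Of vehicle cluster peaks with under 20 tags, 10 of 41 had a partner (24.4%, 12.4 to 40.3), against 28.8% of all. With 20 to 39 tags it was 50 of 64 (78.1%, 66.0 to 87.5), against 77.6%. With at least 40 tags it was 92 of 94 (97.9%, 92.5 to 99.7), and 2 had none, where 1.34% of all such peaks had none. Of GSK2879552 cluster peaks with under 20 tags, 27 of 45 had a partner (60%, 44.3 to 74.3), against 54.9%. With 20 to 39 tags it was 84 of 90 (93.3%, 86.1 to 97.5), against 96.1%, and with at least 40 tags 56 of 56, against 99.6%. On chromosome 1 alone, 14 of 16 vehicle peaks with at least 40 tags had a partner (87.5%, 61.7 to 98.4), against 98.7% of all, and 7 of 10 GSK2879552 peaks with 20 to 39 tags (70%, 34.8 to 93.3), against 96.1%. In both of these classes every chromosome 1 peak without a partner lay in the stretch with identical gene copies, where tags are uncertain. The intervals of both chromosome 6 clusters included the shares of all peaks in each class.

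**Figure D3:**
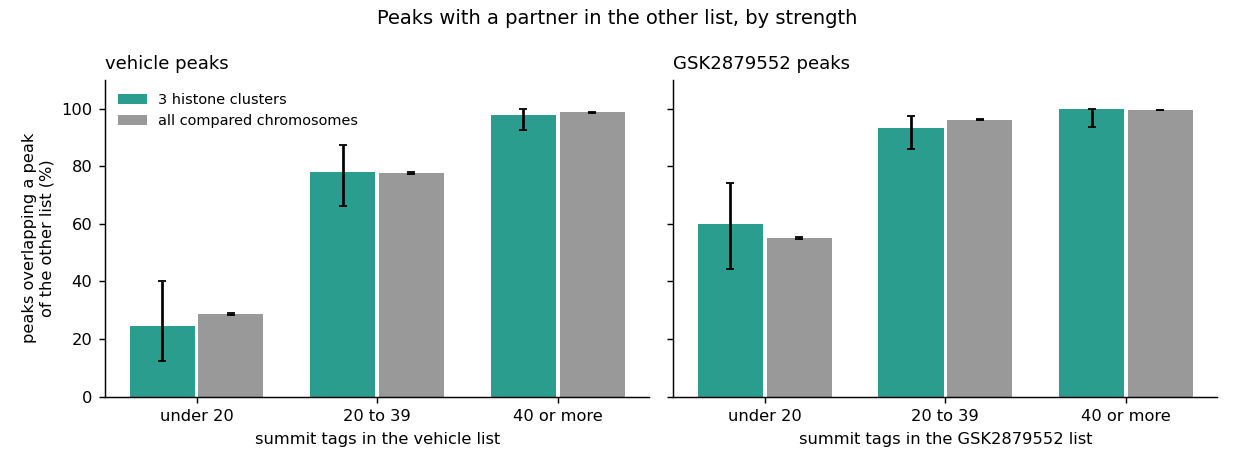
Percent of peaks that overlap a peak of the other list, by summit tags in their own list, for the 3 clusters together (green) and all compared chromosomes (grey); bars start at 0 and error bars are exact Clopper-Pearson 95% intervals. The interval of the clusters includes the value of all peaks in each of the 6 classes, as at 20 to 39 vehicle tags with 78.1% and 77.6%.

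The strongest vehicle-only peaks of the proximal cluster were chr6:26025994-26026125 with 32 tags (exact Poisson interval 21.9 to 45.2), and chr6:26057143-26057257 and chr6:26284843-26284966 with 25 tags each (16.2 to 36.9). A GSK2879552 peak lay 414, 303 and 411 bp away from them. In the distal cluster they were chr6:27181574-27181760 with 26 tags (17 to 38.1), and chr6:27295234-27295398 and chr6:27577122-27577292 with 24 each (15.4 to 35.7). Here the nearest GSK2879552 peak was farther, at 786, 5216 and 3195 bp. On chromosome 1 they were chr1:149825013-149825127 with 41 tags (29.4 to 55.6), chr1:149824399-149824538 with 40 (28.6 to 54.5) and chr1:149834323-149834460 with 28 (18.6 to 40.5). All of these chromosome 1 peaks lay in the stretch that holds identical gene copies, where tags, and so a missing partner, are uncertain. The peaks of 41 and 40 tags are the strong exceptions in the map of summits. They stood on backgrounds of 16.2 and 16.3 tags, among the highest in the clusters. The GSK2879552 list gives no tags for these places, so a missing peak does not show closed chromatin.

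The strongest GSK2879552-only peaks mostly lay beside vehicle peaks. In the proximal cluster chr6:26022491-26022590 had 28 tags (18.6 to 40.5), chr6:26123780-26123886 had 22 (13.8 to 33.3) and chr6:26222974-26223073 had 16 (9.15 to 26.0), at 272, 125 and 477 bp from a vehicle peak. On chromosome 1 chr1:149813933-149814068 had 32 (21.9 to 45.2), chr1:149822966-149823127 had 29 (19.4 to 41.6) and chr1:149804898-149805000 had 22 (13.8 to 33.3), at 3, 25 and 279 bp. All of these chromosome 1 peaks lay in the stretch with identical gene copies, where tags are uncertain. In the distal cluster chr6:27807633-27807732 had 24 (15.4 to 35.7), chr6:27794905-27795026 had 19 (11.4 to 29.7) and chr6:27452423-27452553 had 17 (9.90 to 27.2), at 750, 2129 and 377 bp.

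The last of these belongs to a group of 5 GSK2879552 peaks, from position 27452423 to 27453990, with 17, 19, 17, 15 and 13 summit tags. The vehicle list had 1 peak there, chr6:27452931-27453297, with 12 tags, which overlapped 2 of the 5. The group lay in the 100 kb from 27370001 to 27470000, which held 6 vehicle and 12 GSK2879552 peaks. It was singled out after its values were seen, and each of its peaks is weak.

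At peaks present in both lists, the GSK2879552 library had fewer tags at almost every one of them in the clusters. Peaks that were each other's only partner formed 128 pairs: 32 proximal, 82 distal and 14 on chromosome 1. Before any scaling 120 of the 128 had fewer tags with GSK2879552, 3 had equal tags and 5 had more, where 83.3% of all 110134 pairs had fewer. The GSK2879552 library was the deeper one by its genome-wide background, 2.72 tags against 2.31, so its tags were divided by the ratio, 1.18. After that all 128 were lower, where 94.2% of all pairs were.

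Summed over the pairs, the proximal cluster had 1435 vehicle and 1062 GSK2879552 tags, which gave a scaled ratio of 0.629 (0.581 to 0.682, an exact binomial interval). The distal cluster had 3482 and 2600 tags, a ratio of 0.635 (0.603 to 0.668). The chromosome 1 cluster had 809 and 647 tags, a ratio of 0.680 (0.613 to 0.755). The ratio of all pairs was 0.683 (0.682 to 0.684). It lay just above the interval of the proximal cluster, above that of the distal cluster and within that of chromosome 1. The neighbouring stretches, given at the end, had ratios from 0.651 to 0.690, with intervals that overlap those of the clusters beside them. Neighbouring positions and pairs share one library each, so the intervals are too narrow for a statement on cells. The median log2 ratios were -0.69, -0.64 and -0.60, against -0.56 over all pairs. Dividing by the depth ratio lowers every log2 ratio by 0.23, and unscaled the medians were -0.46, -0.41 and -0.37, against -0.32.

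A scaled decrease of at least 1.5-fold was found in 21 of 32 proximal, 49 of 82 distal and 8 of 14 chromosome 1 pairs. Together these are 78 of 128, or 60.9%, where 45.5% of all pairs passed this size. Without scaling there were 33 of 128, or 25.8%, where 19.4% of all pairs passed, so the level of both shares rests on the scaling. An increase of at least 1.5-fold was found in 0 of 128 with either scale, where 0.172% of all pairs had one after scaling and 1.04% before it. A scaled decrease of at least 2-fold was found in 6 proximal, 8 distal and 1 chromosome 1 pairs, where 7.1% of all pairs had one.

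The clusters' pairs carried more tags than most, so they were also set beside pairs of the same strength. With at least 100 tags over both lists, 37 cluster pairs had a ratio of 0.664 (0.625 to 0.705), against 0.710 over all such pairs. With 60 to 99 tags, 49 cluster pairs had 0.622 (0.583 to 0.664), against 0.655. With under 60 tags, 42 cluster pairs had 0.621 (0.566 to 0.681), against 0.681. The clusters had the lower value in each class; the value of all pairs lay above the interval in the class of at least 100 tags and, by less than 0.001, in the class under 60, and within it in the class of 60 to 99. No test of this difference was made, since the libraries have no replicates.

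**Figure D4:**
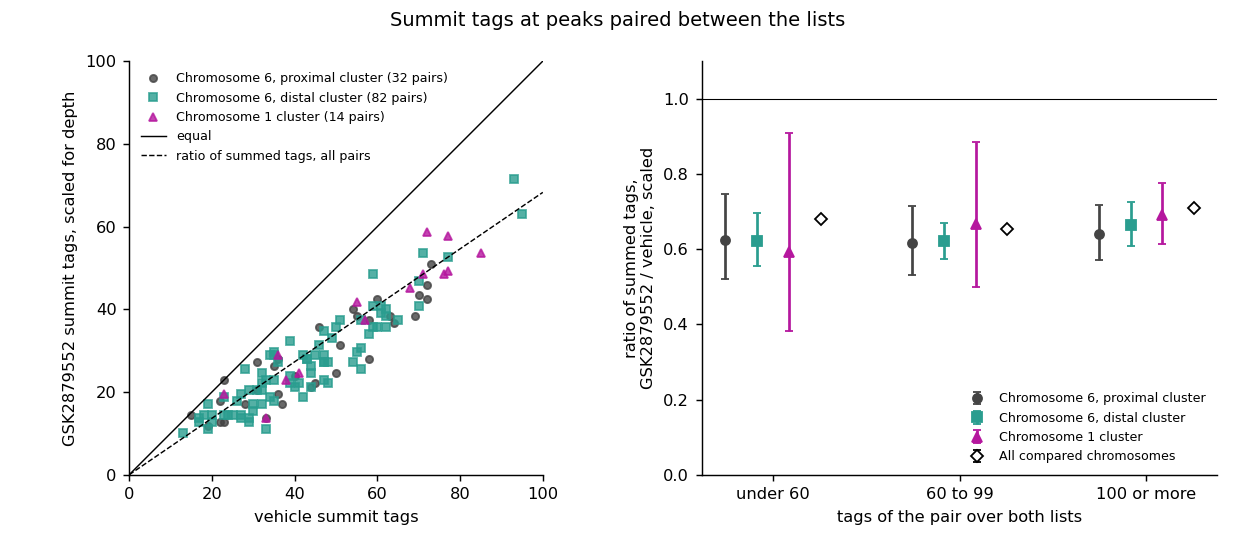
Left, summit tags of the 128 paired peaks, vehicle against GSK2879552 divided by the depth ratio, with the line of equality and the ratio of all pairs (0.683); right, the ratio of summed tags by strength of the pair, with exact binomial 95% intervals for the 3 clusters and open diamonds for all compared chromosomes. All 128 points lie below the line of equality, and the summed ratios of the clusters lie between 0.592 and 0.691.

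The strongest regions, here and in the distal and chromosome 1 clusters, were chosen by their vehicle tags. This choice by itself favours lower ratios, so their intervals cannot be read as a test against 1. Those of the proximal cluster kept their peaks with fewer tags. At chr6:26021599-26022218, the highest, 73 tags with vehicle stood against 60 with GSK2879552, a scaled ratio of 0.699 (0.488 to 0.997). At chr6:26026539-26026825 there were 72 and 54 tags (0.638, 0.440 to 0.921), and at chr6:26156449-26156915 there were 72 and 50 (0.591, 0.403 to 0.859). At chr6:26123153-26123520 the tags were 70 and 51 (0.620, 0.423 to 0.902). The fifth of the strongest, chr6:26124012-26124794 with 71 tags, overlapped 2 GSK2879552 peaks, of 59 and 37 tags. The widest peak, chr6:26216500-26217618 with 1119 bp, had 51 tags, and its GSK2879552 partner had 37 tags over 1066 bp. After scaling none of the 4 intervals of these strong pairs includes 1, but each of them would without division by the depth ratio.

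In the distal cluster the strongest region, chr6:27218852-27219905, had 95 vehicle and 74 GSK2879552 tags (0.663, 0.482 to 0.907). At chr6:27440051-27441253, the widest vehicle peak of the cluster with 1203 bp, there were 93 and 84 tags (0.768, 0.565 to 1.04). At chr6:27560346-27560781 the tags were 77 and 62 (0.685, 0.482 to 0.969). At chr6:27114209-27115232 they were 71 and 63 (0.755, 0.529 to 1.07), and at chr6:27655888-27656290 they were 70 and 55 (0.668, 0.461 to 0.965). After scaling the intervals of 2 of these 5 include 1, those of the regions with 84 and 63 GSK2879552 tags. Without division by the depth ratio all 5 would include 1. The region of 93 tags is the first after the longest gap of the cluster.

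On chromosome 1 the strongest region, chr1:149823202-149823696, had 85 vehicle and 63 GSK2879552 tags (0.630, 0.448 to 0.884). At chr1:149814072-149815002 there were 77 and 68 tags (0.751, 0.534 to 1.05). The other 3 of the strongest were each listed as 2 GSK2879552 peaks. These were chr1:149783253-149784204 with 84 tags against 48 and 56, chr1:149821958-149822940 with 83 against 29 and 69, and chr1:149857812-149858806 with 82 against 43 and 62. The widest peak, chr1:149832283-149833499 with 1217 bp, had 68 tags, and its partner had 53 over 906 bp (0.663, 0.454 to 0.964).

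Among pairs with at least 60 tags, the lowest scaled ratio of the proximal cluster was 0.483 (0.283 to 0.807) at chr6:26205535-26205743, with 44 and 25 tags. The highest was 0.878 (0.519 to 1.49) at chr6:26029615-26029833, with 31 and 32. In the distal cluster the lowest was 0.446 (0.253 to 0.764) at chr6:27835313-27835470, with 42 and 22 tags, and the highest 0.851 (0.513 to 1.41) at chr6:27787577-27787728, with 34 and 34. On chromosome 1 the lowest was 0.602 (0.361 to 0.992) at chr1:149782733-149782914, with 41 and 29 tags, and the highest 0.815 (0.577 to 1.15) at chr1:149857194-149857565, with 72 and 69. The lowest and highest intervals of each cluster overlap, so single regions were not separated from each other at this depth. Counting error makes part of such extremes.

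The ratio was similar along the clusters. In stretches of 100 kb the scaled ratio of the proximal cluster was 0.635 (0.557 to 0.723), 0.652 (0.576 to 0.737) and 0.574 (0.477 to 0.690), in order. In the distal cluster the stretches with at least 10 pairs ran from 0.619 to 0.657. Its stretches with 2 and 4 pairs had 0.543 (0.402 to 0.730) and 0.704 (0.576 to 0.861). All these intervals overlap each other. The last stretch, of 30 kb, held no pair.

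Less local background went with the lower summits. At the 111 cluster pairs above the genome-wide background in both lists, the scaled log2 ratio of GSK2879552 to vehicle background had a median of -0.60 in the proximal cluster, -0.46 in the distal cluster and -0.52 on chromosome 1. Over the 66547 such pairs of all chromosomes it was -0.16. It was -0.46 in the stretch between the chromosome 6 clusters and -0.46 after the distal one, so the value of the distal cluster was not particular to it. Before the proximal cluster it was -0.34, over 9 pairs. Beside the chromosome 1 cluster it was -0.20 before and -0.30 after it, both nearer to the value of all pairs than the cluster's own. With the background subtracted from the summit tags, the ratio of summed tags at the paired peaks was 0.622 in the proximal cluster, 0.622 in the distal cluster and 0.677 on chromosome 1.

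Wide vehicle peaks were often listed as several peaks with GSK2879552. This held for 4 proximal, 10 distal and 4 chromosome 1 peaks, 18 of 199 or 9.05%, where 3.15% of all vehicle peaks overlapped more than 1 GSK2879552 peak. Among peaks of at least 500 bp it was 15 of 45, or 33.3%, against 25.5% of all such peaks. The reverse, a GSK2879552 peak over several vehicle peaks, was found in 0, 3 and 0 cases, where 0.665% of all GSK2879552 peaks did so. The widest split peak was chr6:27805706-27806882, with 1177 bp and 64 tags, listed as 2 peaks of 702 and 399 bp with 47 and 36 tags. The widest merged peak was chr6:27342259-27343174, with 916 bp and 51 GSK2879552 tags over 2 vehicle peaks of 49 and 64 tags. The summits of paired peaks lay a median of 13 bp apart, against 17 bp over all pairs. Pairs had to overlap, which by itself favours close summits. Of the pairs, 105 of 128 were narrower with GSK2879552 (82.0%, against 81.2%).

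On chromosome 1 the peaks lay as mirror images. Around position 149818471, an axis chosen from the summits as the one with most mirrored pairs within 100 bp, 16 of the 24 vehicle summits formed 8 mirrored pairs. In the GSK2879552 list 10 of 25 summits formed 5 pairs around the same axis. The next best axis gave 4 vehicle pairs. The mirrored stretch, from 149792075 to 149844911, was 52.8 kb long and held 18 vehicle and 16 GSK2879552 summits.

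Mirrored peaks resembled each other in height. With vehicle, chr1:149814072-149815002 and its mirror image chr1:149821958-149822940 had 77 and 83 tags at 4017 bp from the axis, and widths of 931 and 983 bp. The next pair outwards had 76 and 85 tags, followed by 57 and 55, 36 and 40, and 71 and 68. The pair of 71 and 68 was formed by chr1:149803456-149804618 and chr1:149832283-149833499, of 1163 and 1217 bp. The outer pairs had 38 and 28, 23 and 33, and 12 and 12 tags. With GSK2879552 the 5 pairs had 68 and 69, 32 and 29, 57 and 63, 44 and 49, and 23 and 16 tags. The pair of 32 and 29 tags was formed by peaks listed with GSK2879552 only. The vehicle-only peaks of 40 and 28 tags mirror vehicle peaks of 36 and 38 tags. Those mirror images had GSK2879552 partners of 34 and 27 tags.

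RefSeq lists gene copies on opposite strands in this cluster, with H4C14, H3C14 and H2AC18 against H4C15, H3C15 and H2AC19. The start window of H4C15 was identical to that of H4C14 printed above in 300 of 300 bases. H3C14 and H3C15 were identical in all 296 aligned bases and H2AC18 and H2AC19 in all 299. A short read from such copies has no unique place, so the tags of mirrored peaks are uncertain, and the sources used here do not say how such reads were mapped. Outside the mirrored stretch the cluster held 6 vehicle and 9 GSK2879552 peaks, and all of them had a partner.

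**Figure D5:**
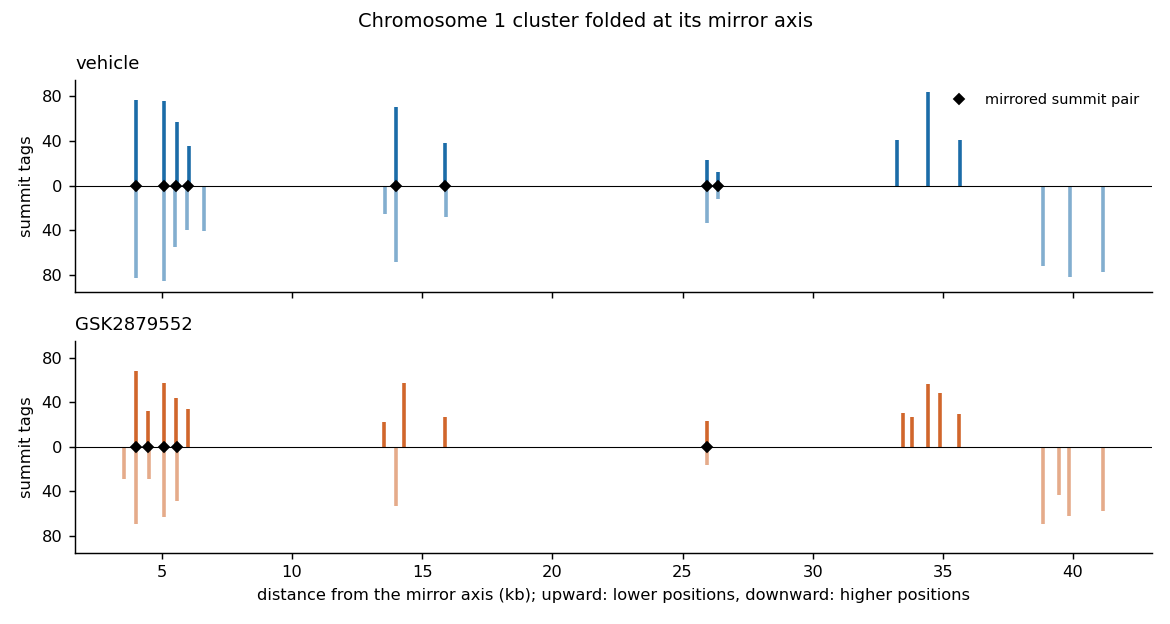
Summit tags of the chromosome 1 cluster against the distance from the mirror axis in kb, folded so that peaks at lower positions point up and those at higher positions point down, for vehicle (top) and GSK2879552 (bottom, unscaled tags); diamonds mark summits that mirror each other within 100 bp. With vehicle 8 pairs are marked, from 4017 to 26366 bp, and with GSK2879552 5 pairs.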

How the data were processed

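Accessible DNA of LNCaP cells was profiled by ATAC-seq in 4 samples, 2 lanes for each of 2 conditions, with 1 peak list per condition named in both lanes' labels. Per the submitters' processing notes, the tools were MACS2 2.1.2, SAMtools 0.1.18 and BWA 0.7.2, with hg19 and GRCh37 as builds. The sources used here do not state how duplicates, mapping quality or the transposase offset were handled.

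Every peak in the deposited lists has a fold enrichment (a ratio), −log10 p and −log10 q values, a score and a summit offset. The score deposited by the authors was not used. Summit tags and background were recovered from the deposited fold and −log10 p, since p is the Poisson probability of more tags than observed. A whole number matched within 0.001 in 100% of rows of both lists, and the inversion was checked on simulated data. The smallest deposited −log10 q was 1.31 (vehicle) and 1.30 (GSK2879552), and the fewest tags were 8 and 9. The highest summit had 199 tags. A ceiling of 200 was therefore assumed, as if each position and strand were counted once, which the sources used here do not state. The sources used here give no library totals, and depth was scaled by the genome-wide background.

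Peaks joined a cluster by their summit and were shared at 1 bp of overlap. Named regions are, per cluster, the 5 vehicle peaks with most tags, the 3 strongest in 1 list only, the lowest and highest ratio among pairs of at least 60 tags, and the widest peaks. Intervals are exact 95% Clopper-Pearson, Poisson or binomial. Alternatives were lists of equal length, a −log10 q minimum of 5, sharing by summits within 250 bp or by 50% reciprocal overlap, any overlap with a cluster, no scaling, background subtracted, a correction for the tag limit and pairs of at least 60 tags. The members, lists and motifs were chosen with earlier results of these data known, and the mirror axis after the data were seen. Python 3.11.15, NumPy 2.4.6, pandas 2.3.3, SciPy 1.17.1 and Matplotlib 3.10.9 were used.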

Additional observations from a re-analysis of the deposited data

How the results depend on the processing

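Of 90 recomputed values 72 stayed within the interval of the main value or, for numbers of peaks, within 1.5 times it. The other 18 moved by more. Shares and ratios had counting intervals, and median log2 ratios had an interval of the median over pairs. Only the 22 median log2 ratios and the 22 ratios of summed tags could change direction, and 0 of them did. With a reciprocal overlap of 50%, the share of GSK2879552 peaks with a partner was 68.1% in the proximal cluster, 73.1% in the distal cluster and 64.0% on chromosome 1, and that of vehicle peaks in the distal cluster was 73.1%. With summits within 250 bp the GSK2879552 share was 79.8% in the distal cluster and 68.0% on chromosome 1. With a −log10 q minimum of 5 it was 95.1%, 95.7% and 100%. Without depth scaling the median log2 ratio was -0.46 in the proximal and -0.41 in the distal cluster, and the ratio of summed tags was 0.740, 0.747 and 0.800. Without the mirrored stretch of chromosome 1, an alternative chosen after seeing the data, that cluster had 6 vehicle and 9 GSK2879552 peaks, with shares of 100% and 100%. Over all alternatives the ratio of summed tags stayed between 0.603 and 0.740 in the proximal cluster, 0.613 and 0.747 in the distal cluster, and 0.653 and 0.800 on chromosome 1. No paired analysis was possible because each condition had 1 peak list, and no lane could be left out for the same reason. Depth limits single regions: most had under 60 tags in each list, and an interval that includes 1 does not show equal accessibility.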

Other observations

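The 770 kb between the chromosome 6 clusters held 91 vehicle and 82 GSK2879552 peaks. Of these, 16 and 14 were in the top 10% of their list by summit tags, which is a rank within each list. The 65 paired peaks of this stretch had 2669 vehicle and 2133 GSK2879552 tags, a scaled ratio of 0.680 (0.642 to 0.720), and 63 of the 65 were lower after scaling. The 26 pairs in the 500 kb before the proximal cluster had a ratio of 0.657 (0.588 to 0.733). The 18 pairs in the 500 kb after the distal cluster had 0.669 (0.605 to 0.740). The 33 pairs in the 500 kb after the chromosome 1 cluster had a ratio of 0.651 (0.605 to 0.701), and the 38 pairs in the 500 kb before it 0.690 (0.634 to 0.750).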
